A study of Oryza sativa with 6 samples.

Results

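Tonoplast intrinsic proteins (TIPs) are the aquaporins of the membrane around the plant vacuole. 5 rice loci of this family, OsTIP1.1 (Os03g0146100), OsTIP1.2 (Os01g0975900), OsTIP2.1 (Os02g0658100), OsTIP2.2 (Os06g0336200) and OsTIP4.1 (Os05g0231700), were followed over 6 root arrays. The members are the 8 probe sets annotated to exactly one of these loci, out of 57381 probe sets and 25727 annotated loci on the array. OsTIP2.1 has 3 probe sets, OsTIP1.1 has 2 and each other locus has 1. All 8 passed the filter on dim probe sets, one of them (the A1_at set of OsTIP2.1) through its Prasanna readings alone. The names of all 5 loci matched the synonyms in a reference gene table.

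Roots of rice seedlings grown in nutrient solution were profiled for 2 varieties, Prasanna and Varadan, at a labelled age of 14 days. All seedlings germinated for 7 days and were kept in nitrogen-containing Yoshida medium, a rice nutrient solution, for 10 days. They then went into the same medium without nitrogen (1 array per variety) or with supplemented nitrogen (2 arrays per variety). These days add up to more than the stated age. No label states whether replicates were grown apart, so a p-value here covers the spread of these 6 samples alone, and that spread may be technical.

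An aquaporin is a channel of 6 membrane-spanning helices that lets water, and in some members small uncharged solutes, pass along a gradient. In the tonoplast such channels let the large central vacuole exchange water quickly with the thin layer of cytoplasm around it. In Arabidopsis, TIP2 proteins also pass ammonia and several TIPs pass urea, which ties the family to nitrogen storage in the vacuole. TIP3 proteins are known from seeds, where they sit in protein storage vacuoles.

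One array went against its label. OsNRT2.3, a nitrate transporter gene, stood at 11.31 (Prasanna) and 12.49 log2 (Varadan) on the nitrogen-free arrays. It read 6.82 and 7.06 with nitrogen in Prasanna and 7.78 on replicate 2 of Varadan with nitrogen, but 12.29 on replicate 1. The ammonium transporter gene OsAMT1.2 read 10.78 on that replicate 1, 9.54 and 10.83 without nitrogen and 4.1 to 6.4 on the other arrays. The nitrite reductase gene OsNiR read 10.73 on it, 9.98 and 11.26 without nitrogen and 13.41 to 14.31 on the others. That replicate 1 is called the doubtful array here. The deposited tables also exchange its column with that of the Varadan array without nitrogen, and no source says which table is right. Results on nitrogen are therefore given with and without it and with the exchanged labels. The root silicon transporter gene OsNIP2.1 read 14.52 to 15.21 on all 6 arrays. The mean of 13 genes of green tissue was highest on the Varadan array without nitrogen (12.79), followed by the doubtful array (11.80), with 10.34 to 11 on the other 4. The mean of 9 genes of dividing root tips ran from 9.10, on the Varadan array without nitrogen, to 10.13, on the doubtful array. No gene of either list lay below the 40th percentile of its array.

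OsTIP2.2 and OsTIP1.2 were lower without nitrogen on the 5 arrays other than the doubtful one, while OsTIP4.1 was higher. On those arrays OsTIP2.2 fell by 1.38 ± 0.19 log2 (SE; 2.61-fold), OsTIP1.2 fell by 1.83 ± 0.46 (3.55-fold) and OsTIP4.1 rose by 1.33 ± 0.19 (2.51-fold). OsTIP1.1 and OsTIP2.1 did not pass the test there. The same fit called 5.96% of all tested probe sets higher and 7.5% lower. With all 6 arrays no member passed. With the exchanged labels and the array of that name left out, only OsTIP2.2 passed. Values are MAS5 signals on the log2 scale, where MAS5 is Affymetrix software that summarises each array by itself, and differences were tested with limma and Benjamini-Hochberg adjustment at 0.05 over 34316 probe sets.

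OsTIP2.2, a member of the group that includes the ammonia-conducting TIPs of Arabidopsis, in Prasanna read 13.24 log2 without nitrogen and 14.55 and 15.01 with it. Its Varadan readings were 13.14 without nitrogen, 13.05 on the doubtful array and 14.31 on replicate 2 with nitrogen. The doubtful array thus stood at the level of the arrays without nitrogen, and the 3 remaining arrays with nitrogen were all more than 1 log2 higher. Over 6 arrays the difference was -1.04 ± 0.39 (limma adjusted p = 0.195), and without the doubtful array -1.38 ± 0.19 (0.00761). With the exchanged labels it was -1.11 ± 0.37 (0.734) over 6 arrays. Without the array then labelled replicate 1 of Varadan with nitrogen, it was -1.42 ± 0.18 (0.00509), in a fit that called 4.26% of probe sets higher and 4.14% lower. OsTIP2.2 was the only one of the 8 probe sets that passed under both labellings once the array of that name was left out. Those fits differ only in which Varadan reading, 13.14 or 13.05, stands for the array without nitrogen. As these readings are close, passing under both labellings is no independent support. Its probe set (ending S1_x_at) carries the suffix that Affymetrix gives to sets with probes that can also match other transcripts, so part of the signal may belong to a similar gene.

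OsTIP4.1, whose Arabidopsis relative is known as a root TIP that passes water and urea, had the opposite pattern. In Prasanna it read 13.47 log2 without nitrogen and 12.17 and 11.77 with it, and in Varadan 13.69 without nitrogen and 12.82 and 12.59 with it. Its groups did not overlap, with both nitrogen-free arrays on the higher side, which held for 14.1% of the probe sets tested. The doubtful array was nearer to its replicate than to the array without nitrogen. The difference was 1.24 ± 0.20 over 6 arrays (limma adjusted p = 0.123, unadjusted p = 0.000464) and 1.33 ± 0.19 without the doubtful array (adjusted p = 0.00776). The exchanged labels gave 0.59 ± 0.47 (adjusted p = 0.848), and 0.95 ± 0.29 (0.0871) with the array of that name left out. The green tissue mean was also highest on the Varadan array without nitrogen; its part in this result was not tested.

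OsTIP1.2, a close relative of OsTIP1.1, in Prasanna read 10.29 log2 without nitrogen and 10.94 and 12.59 with it. Its Varadan readings were 10.35 without nitrogen, 10.64 on the doubtful array and 12.65 on replicate 2. Both arrays without nitrogen lay below all 4 with nitrogen, as for 17.5% of all tested probe sets. The replicates with nitrogen were far apart, with a mean of 11.76 ± 1.17 (SD, n = 2) in Prasanna and 11.65 ± 1.42 (SD, n = 2) in Varadan. This spread followed the replicate number, with 10.94 and 10.64 on replicate 1 and 12.59 and 12.65 on replicate 2. The labels give only the number 2, and none says that arrays of equal number were handled together. Without the doubtful array, both replicate 2 arrays stay but only the Prasanna array of replicate 1. A gap between replicates therefore cannot be told apart from part of the nitrogen difference there. The difference was -1.38 ± 0.63 over 6 arrays (limma adjusted p = 0.259) and -1.83 ± 0.46 without the doubtful array (0.0426). With the exchanged labels it was -1.17 ± 0.69 (0.815), and -1.70 ± 0.44 (0.0553) without the array of that name, so its call held under one labelling only.

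**Figure D1:**
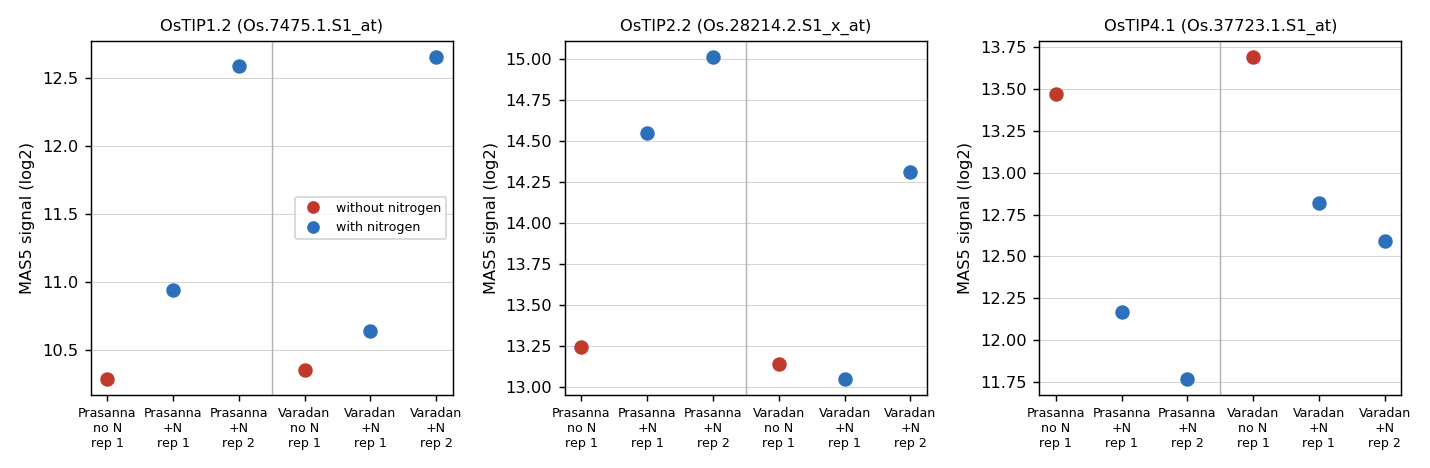
MAS5 signal (log2, vertical axis, a separate scale per panel) of OsTIP1.2, OsTIP2.2 and OsTIP4.1 on the 6 arrays, with red points for arrays without nitrogen and blue points for arrays with it; "rep" is the replicate. OsTIP2.2 reads 13.05 to 13.24 on the arrays without nitrogen and on replicate 1 of Varadan with nitrogen, while OsTIP4.1 is highest on both arrays without nitrogen (13.47 and 13.69).

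OsTIP1.1, the type member often used to mark the membrane of the lytic vacuole, was among the brightest features of every array. Its leading probe set (ending S1_a_at) in Prasanna read 16.13 log2 without nitrogen and 16.33 and 16.22 with it. Its Varadan readings were 16.29 without nitrogen and 15.92 and 15.82 with it. These levels were within 1 log2 of the highest reading on each array (16.30 to 17.11). The groups overlapped, and the difference was 0.13 ± 0.17 (limma adjusted p = 0.652); it turned to -0.19 with quantile normalization and to -0.14 with the exchanged labels. The second probe set (ending S1_x_at), dimmer and also of the kind that can match other transcripts, had Prasanna readings of 14.43, 14.83 and 15.10 and Varadan readings of 14.30, 14.58 and 14.69, in the same order of arrays. Here both arrays without nitrogen lay below all 4 with nitrogen, as for 17.5% of tested probe sets, with a difference of -0.43 ± 0.15 (adjusted p = 0.172). The probe sets of OsTIP1.1 thus differed in sign, but neither passed, and the gap between their responses (-0.57 ± 0.23, adjusted p = 0.488 over 5763 pairs of probe sets of one locus) did not pass either.

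OsTIP2.1 was measured by 3 probe sets that disagreed between the varieties. One of them, ending A1_at, read 13.64, 12.05 and 13.32 log2 on the Prasanna arrays, the one without nitrogen given first. In Varadan the same probe set read 1.45, 4.08 and 4.76, below the 40th percentile of each array (4.89 to 5.42). The signal was thus bright on all 3 Prasanna arrays and not above background on any Varadan array; readings fully lower in Varadan occurred for 6.8% of tested probe sets. The means were 13.00 ± 0.84 and 3.43 ± 1.75 (SD, n = 3 each). With the Varadan readings raised to the 40th percentile, the signal was at least 241-fold lower in Varadan (at least 7.91 log2; limma adjusted p = 0.00268 on the deposited values). A probe set that the filter keeps through one variety alone had to differ, so this p is a description. The limma adjusted p of 0.00083 with no filter on dim probe sets is one too, resting on the same low Varadan readings. None of the other 7 probe sets was called between the varieties, where 0.801% of all tested probe sets were called lower in Varadan and 0.95% higher.

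The remaining probe sets of OsTIP2.1 did not show this loss. The leading one, ending S1_s_at, whose suffix marks probes shared by several transcripts, had Prasanna readings of 15.79, 15.28 and 15.65 and Varadan readings of 16.28, 15.66 and 15.27. These ranges overlapped, and the difference was 0.17 ± 0.19 (limma adjusted p = 0.822). The other one, ending S1_at, had Prasanna readings of 12.55, 11.27 and 12.73 and Varadan readings of 14.17, 14.21 and 13.45. All 3 Varadan arrays lay above all 3 Prasanna arrays, as for 6.66% of all tested probe sets, and the difference was 1.76 ± 0.39 (3.39-fold; adjusted p = 0.101). In Varadan one locus therefore had a probe set near background, one whose readings overlapped those of Prasanna and one whose readings all lay above them without passing the test. The leading set read 15.27 to 16.28, where the highest signal of each array was 16.30 to 17.11.

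The disagreement was also described as the log2 gap between the A1_at set and the leading probe set, Varadan minus Prasanna. With low readings raised to the 40th percentile this gap was -8.08, a bound on its size. Raising them also narrows their spread, so no p is given for this bound. On the deposited values the adjusted p was 0.0489, and it missed the threshold without any 1 array (0.0721 to 0.206) and with the exchanged labels (0.0771). Unequal variety differences were called for 45 of the pairs (0.781%). The A1_at set entered these pairs, too, through its Prasanna readings alone. Of 4477 loci with several tested probe sets, 6 (0.134%) had probe sets called in opposite directions, and OsTIP2.1 was not one of them. A mean over its 3 probe sets would differ by -2.55 (adjusted p = 0.017), where the leading one differed by 0.17; that mean includes the A1_at readings below background. Sequences of the probes were not used here, so where each set lies on the transcript is not given, and what makes them disagree was not tested.

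**Figure D2:**
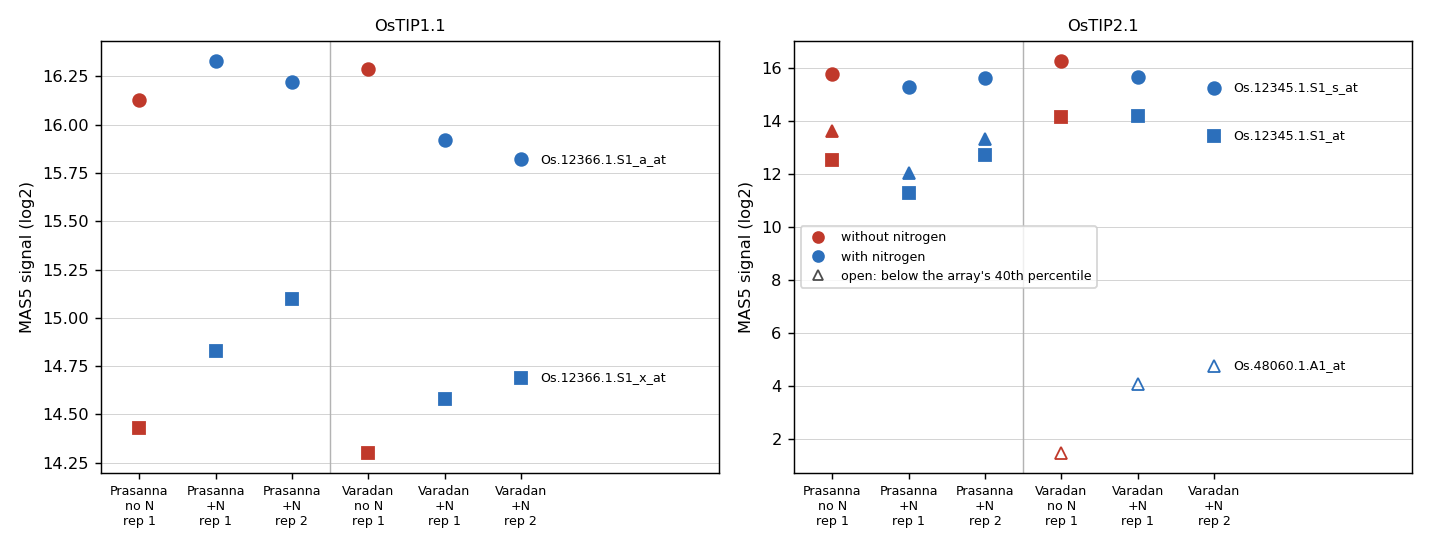
MAS5 signal (log2, vertical axis, a separate scale per panel) of the probe sets of OsTIP1.1 and OsTIP2.1 on the 6 arrays, red without and blue with nitrogen, with 1 marker shape per probe set and open markers for readings below the 40th percentile of their array. The A1_at set lies at 12.05 to 13.64 in Prasanna and 1.45 to 4.76 in Varadan, while the leading probe set of OsTIP2.1 stays between 15.27 and 16.28.

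In its response to nitrogen OsTIP2.1 did not pass. The leading probe set was higher on both arrays without nitrogen (15.79 and 16.28) than on all 4 with it (15.27 to 15.66), as were 14.1% of tested probe sets, by 0.57 ± 0.20 (limma adjusted p = 0.178), and by 0.62 ± 0.21 (0.103) without the doubtful array. The exchanged labels gave 0.10 ± 0.30 (0.951). The S1_at set gave 0.44 ± 0.41 (0.549) with overlapping groups. For the A1_at set only Prasanna gave readings above background, and its array without nitrogen (13.64) lay above both with nitrogen (12.05 and 13.32), by 0.96 ± 0.64 (0.547).

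Over all 6 arrays limma called 0 probe sets (0%) for the response in both varieties, with 7420 (21.6%) at an unadjusted p under 0.05; the fit without a variance trend also called 0. Of the 8 TIP probe sets, 4 were at an unadjusted p under 0.05: OsTIP4.1 and the leading set of OsTIP2.1 on the higher side, OsTIP2.2 and the S1_x_at set of OsTIP1.1 on the lower side. Without the doubtful array 4616 probe sets were called, 5.96% of those tested as higher and 7.5% as lower without nitrogen. On those 5 arrays, where 3 of the 8 TIP probe sets passed, 1 was higher and 2 were lower. The doubtful array was singled out by nitrogen genes and not by the TIPs. Leaving it out for that reason favours calls for any gene that follows those genes, so the calls on the 5 arrays depend on that choice. OsTIP2.2 read 13.05 on the doubtful array, close to the arrays without nitrogen (13.14 and 13.24). OsTIP4.1 read 12.82 on it, nearer to replicate 2 of Varadan with nitrogen (12.59) than to the Varadan array without nitrogen (13.69). OsTIP1.2 read 10.64 on it, about as far from the arrays without nitrogen (10.29 and 10.35) as from replicate 1 of Prasanna with nitrogen (10.94). Array data of whole roots cannot tell fewer cells of a type from less RNA per cell.

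**Figure D3:**
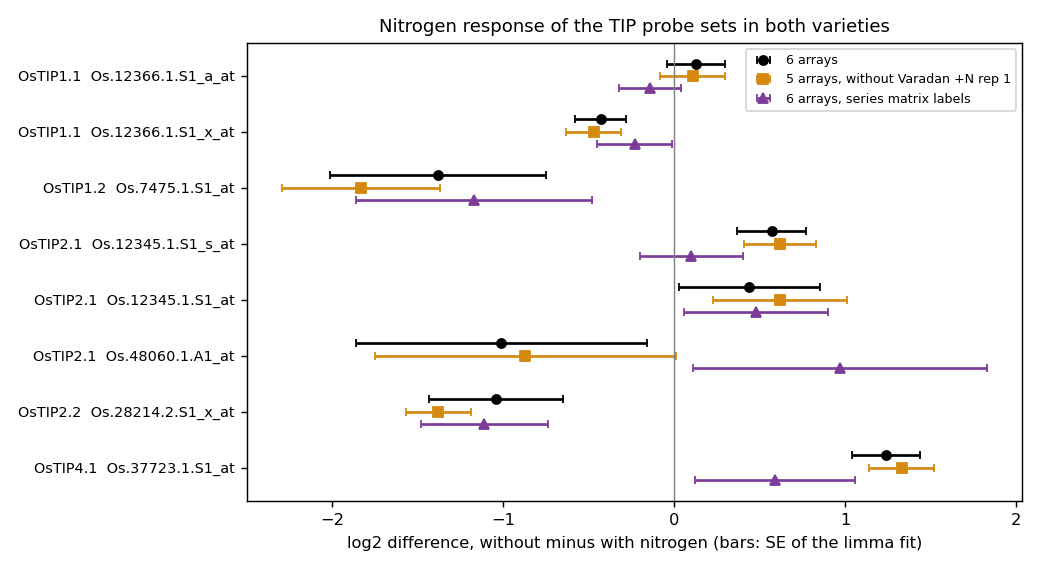
Log2 difference, without minus with nitrogen (horizontal axis), of each TIP probe set with bars of 1 SE from limma; black circles are the fit of all 6 arrays, orange squares the 5 arrays without replicate 1 of Varadan with nitrogen, and purple triangles the 6 arrays with the exchanged labels. OsTIP2.2 lies between -1.38 and -1.04 in the 3 fits, while OsTIP4.1 moves from 1.24 to 0.59 when labels are exchanged.

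Within single varieties the estimates rest on 1 array without nitrogen, and no member passed in either: limma called 0% of probe sets in each, with 11.6% (Prasanna) and 12.8% (Varadan) at an unadjusted p under 0.05. In Prasanna OsTIP4.1 was 1.5 ± 0.27 log2 higher without nitrogen (limma adjusted p = 0.423, unadjusted p = 0.00216) and OsTIP2.2 differed by -1.55 ± 0.54 (0.427). In Varadan OsTIP4.1 gave 0.98 ± 0.27, turning to -0.322 with the exchanged labels, and OsTIP2.2 gave -0.54 ± 0.54. Without the doubtful array the Varadan values were 1.1 ± 0.29 (0.12) and -1.17 ± 0.31 (0.12), with 0.379% of probe sets called higher and 0.323% lower. The direct test of the difference between the varieties' responses passed for no member and for 0% of probe sets, with 5.36% at an unadjusted p under 0.05. For OsTIP4.1 that difference, Varadan minus Prasanna, was -0.51 ± 0.38 (0.981), and for OsTIP2.2 it was 1.01 ± 0.76 (0.981).

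Between the varieties, over both supplies, no locus passed the test by its leading probe set, and the SDs that follow span both nitrogen supplies. OsTIP2.2 had a mean of 14.27 ± 0.92 log2 in Prasanna and 13.50 ± 0.70 in Varadan (SD, n = 3 each), a difference of -0.77 ± 0.37 (limma adjusted p = 0.536). OsTIP4.1 had 12.47 ± 0.89 and 13.03 ± 0.58, a difference of 0.56 ± 0.19 (0.309). OsTIP1.2 had 11.27 ± 1.19 and 11.21 ± 1.25 (-0.06 ± 0.59, 0.986), and the leading set of OsTIP1.1 had 16.23 ± 0.10 and 16.01 ± 0.25 (-0.22 ± 0.16, 0.708).

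Some members moved together or oppositely across the arrays, by description only. Over the 6 arrays OsTIP2.2 and OsTIP4.1 had a Pearson r of -0.89, OsTIP2.2 and OsTIP1.2 one of 0.80, and OsTIP2.2 and the S1_x_at set of OsTIP1.1 one of 0.92. OsTIP4.1 and that probe set had -0.98. The leading set of OsTIP1.1 did not share this, with an r of 0.09 with its S1_x_at set, 0.2 with OsTIP2.2 and -0.03 with OsTIP4.1. These are descriptions of 6 arrays that share 1 scaling. Genes with the most similar profile were sought among about 1910 named genes that range over at least 1 log2. For OsTIP2.2 they were SS2 (r = 0.996), OsGER6 (0.996) and OsGDH1, a glutamate dehydrogenase gene (0.995), and 31 genes reached 0.95. For OsTIP4.1 they were OsFTSH2 (0.984), OsCDPK25, a calcium-dependent protein kinase gene (0.979), and OsMSRA4, a methionine sulfoxide reductase gene (0.976), with 17 genes at 0.95 or above. For OsTIP1.2 they were OsCslC3, a cellulose synthase-like gene (0.995), a gene listed as a peroxidase, Os07g0677100 (0.984), and GL2-5 (0.979). For the leading set of OsTIP2.1 they were FNR (0.970), OsPP2C31 (0.966) and CDC2-1 (0.965). The range of the leading set of OsTIP1.1, 0.51 log2, was too small for such a search.

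The remaining rice aquaporins served as the wider family, read against the 5.96% of all tested probe sets called higher and the 7.5% called lower on the 5 arrays. Of the other TIP loci 3 were tested, and on the 5 arrays 0 passed for nitrogen. The seed-type genes OsTIP3.1 (5.36 to 7.30 log2) and OsTIP3.2 (3.84 to 6.50) were dim, and OsTIP5.1 did not pass the filter. The remaining tested locus, Os01g0232000, was brighter (8.15 to 10.86) and differed by 0.21 ± 0.45 on the 5 arrays. No TIP name stood among its reference synonyms. Of 10 tested plasma membrane aquaporins (PIPs), which carry water across the outer cell membrane, 2 rose without nitrogen and 0 fell, with a median of 0.30. OsPIP2.7 rose by 2.44 ± 0.40 (limma adjusted p = 0.012) and OsPIP2.3 by 0.75 ± 0.16 (0.0249). Of 6 tested NIPs, the group with the silicon channels, Os05g0205000 alone rose (1.13 ± 0.24, 0.0242) and the median was -0.04; of 2 SIPs 0 passed, with a median of 0.32. The 5 TIP members had 1 higher and 2 lower calls and a median of 0.11 by their leading probe sets, beside a median of -0.01 over all tested probe sets. Whether the TIPs differ from the PIPs was not tested. For the aquaporins other than the members no values with the exchanged labels are given, so their calls rest on one labelling. Over all 6 arrays 0 aquaporins passed, and between the varieties 0 passed by their leading probe sets.

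**Figure D4:**
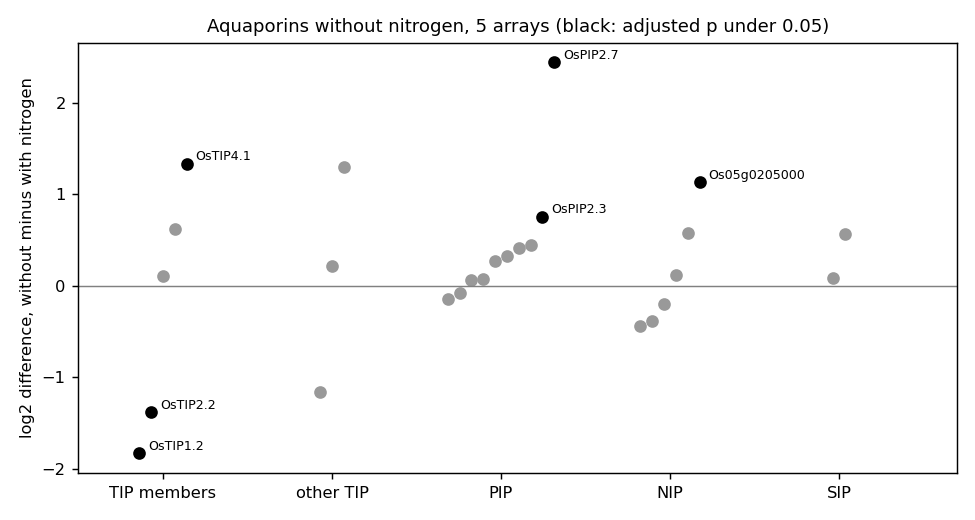
Log2 difference, without minus with nitrogen (vertical axis), of the leading probe set of each tested aquaporin locus on the 5 arrays without replicate 1 of Varadan with nitrogen; columns are subfamilies and black points passed at an adjusted p of 0.05. Calls on the lower side are OsTIP2.2 (-1.38) and OsTIP1.2 (-1.83), and those on the higher side are OsTIP4.1, OsPIP2.7, OsPIP2.3 and Os05g0205000.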

How the data were processed

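RNA of 6 root samples was read on biotin-labelled Affymetrix rice arrays, 1 per sample. Per the submitters' processing notes the probe set signals are MAS5 values; the labels name no version. The authors deposited log2 signals, used as they stand, and a series matrix with the same signals as linear intensity values. On the linear scale each array's mean after trimming 2% at each end was 500, which hides any change common to most genes. The columns of the Varadan array without nitrogen and of replicate 1 of Varadan with nitrogen are exchanged between the tables; the log2 table is the main one. No detection calls were used; readings below their array's 40th percentile were not taken as above background, and differences resting on them are bounds.

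From 57381 probe sets, 187 controls and those with a mean below the 40th percentile were left out, leaving 34316. Limma 3.58.1 in R 4.3.3 (lmFit, eBayes with a variance trend) was run two-sided with additive terms for variety and nitrogen, and with 1 mean per group, in which lone arrays take their spread from the replicated groups. Errors are SE unless an SD is named. The probe set with the highest mean stands for a locus. Pairs of probe sets of one locus were fitted with the additive model without a trend, an analysis added after seeing the data. The fits were tested on simulated data. Alternatives were the series matrix, quantile normalization, no dim filter, no trend, the mean of a locus' probe sets, raised low readings and leaving out each array. All members are printed; for similar profiles the rule names the 3 genes with the highest r, and for the wider family the loci that passed. Os01g0232100 was left out because its names conflict. The members and lists were chosen with earlier results of these data known. Gene names came from a RefSeq gene table (assembly ASM3414082v1); no sequences or positions are given. The number of arrays limits the precision.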

Additional observations from a re-analysis of the deposited data

Results flagged for a closer look

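For the leading probe set of OsTIP1.1, ending S1_a_at, the array without nitrogen lay below both arrays with it in Prasanna and above both in Varadan. The difference of the responses, Varadan minus Prasanna, was 0.57 ± 0.25 log2 (limma adjusted p = 0.935), so the test of it did not pass. For the A1_at set of OsTIP2.1 the array without nitrogen lay above both in Prasanna and below both in Varadan, and the difference was -3.94 ± 0.90 (adjusted p = 0.925). All 3 Varadan readings of that probe set lay below the 40th percentile of their arrays, and with these raised to the percentile the difference was -0.47 ± 0.79 (adjusted p = 0.984).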

How the results depend on the processing

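No paired analysis was possible because only the replicate number 2 stands in the labels, so the groups share fewer than 2 numbers. For nitrogen in both varieties, leaving out each array gave 0 to 4616 calls, and the exchanged labels without the array of that name gave 2880. Leaving out each array gave 239 to 820 calls between the varieties, against 601 with all (176 without a variance trend), 0 to 171 for nitrogen in Prasanna and 0 to 241 in Varadan; the highest counts all came without the doubtful array. For nitrogen in both varieties, the leading set of OsTIP1.1 turned to -0.1446 (exchanged labels), -0.1914 (quantile normalization), -0.1492 (mean of its sets) and -0.04591 (exchanged labels without the array of that name), with -0.1487 to 0.4179 over left-out arrays. The A1_at set of OsTIP2.1 turned to 0.9668 (exchanged labels), 0.7284 (low readings raised) and 0.2553 (exchanged labels without that array), with -2.973 to 0.9617 over left-out arrays. In Varadan, exchanged labels gave -0.1406 and 0.07893 for the leading and S1_x_at sets of OsTIP1.1, -0.1176 and 0.9718 for the leading and A1_at sets of OsTIP2.1 and -0.322 for OsTIP4.1. There, quantile normalization gave -0.1852 for OsTIP1.1, the mean of sets -0.6068 for OsTIP2.1, and raised readings 0.4952 for its A1_at set. The difference of responses for the leading set of OsTIP2.1 turned to -0.4414 (exchanged labels), -0.01523 (quantile) and -1.217 (mean of sets), and for its A1_at set to 0.01015 (exchanged labels). Between varieties, the mean of sets gave -2.55 for OsTIP2.1. Left-out arrays further turned the variety difference of OsTIP1.2 (-0.6176 to 0.5333) and the leading set of OsTIP2.1 (-0.0003195 to 0.3241), the S1_at set of OsTIP2.1 for nitrogen in Prasanna (-0.1857 to 1.277) and Varadan (-0.04967 to 0.7147), OsTIP2.2 in Varadan (-1.166 to 0.09302), and the difference of responses of OsTIP1.2 (-0.834 to 1.18) and the S1_at set (-0.9444 to 0.5182). The variety gap between the sets of OsTIP1.1 ran from -0.1908 to 0.07426. None of these reversed values except -2.55 (limma adjusted p = 0.017) passed. That mean includes the A1_at readings below background, so its p is a description. Beyond the fewer arrays the cause was not tested. The number of arrays limits all of these values.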
